A study of Mus musculus with 8 samples.

Results

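The 6 NMDA receptor subunit genes listed in the deposited table, Grin1, Grin2a, Grin2b, Grin2c, Grin2d and Grin3a, were taken by their symbols from its 56576 genes, and each symbol matched 1 row. NMDA receptors are glutamate-gated cation channels that open when glutamate and a co-agonist, glycine or D-serine, are bound while the membrane is depolarized. Every receptor contains GluN1, encoded by Grin1, which binds the co-agonist. The GluN2 subunits bind glutamate and set the kinetics and the magnesium block of the channel, and GluN3 subunits bind glycine and lower calcium entry. In the cortex GluN2B is the main early partner of GluN1, GluN2A joins as synapses mature, GluN2C is best known from cerebellar granule cells and glia, and GluN2D is known from interneurons. Grin3b, which encodes the other GluN3 subunit, was not analysed here.

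RNA bound to ribosomes tagged with hemagglutinin (HA) was sequenced from synaptosomes of the mouse neocortex at postnatal day 15, from animals of both sexes. The 4 control libraries came from Lhx6-Cre;Erbb4+/+;Rpl22HA/HA mice and the 4 mutant libraries from Lhx6-Cre;Erbb4F/F;Rpl22HA/HA mice, so that every animal carried the Cre driver and the tagged Rpl22 and the genotypes differed in the conditional Erbb4 alleles. Lhx6-Cre is active in the lineage of the medial ganglionic eminence (MGE) and preoptic area, from which parvalbumin (PV) and somatostatin (SST) interneurons arise. The comparison asks whether the NMDA receptor transcripts on interneuron ribosomes at synapses differ when these cells lack the neuregulin receptor ErbB4.

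Reads on genes ran from 51010687 to 80226984 per library, and the members had between 1079 and 58037 reads in any library, so that counting error was small beside the differences among libraries of 1 genotype. Controls had 3589 ± 1614 normalized counts of Erbb4 (mean ± SD, n = 4) and mutants 1410 ± 321.1. At 1640, the library labelled control replicate 1 was under mutants 2 (1711) and 3 (1648). Fold changes of the members and differences of their ratios are given with and without it. Defining markers of the labelled cells were found in every library, with Lhx6 between 531.9 and 1781 and Gad1 between 1130 and 8135. Those of cells outside the Cre lineage were found too, with Slc17a7 of excitatory neurons between 87106 and 122229 and Mbp of oligodendrocytes between 141073 and 535543. In such bulk pulldowns, fewer cells of a type and less RNA per cell cannot be told apart.

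The members share a stretch of coding sequence that the choice by symbol did not use. It encodes a run of 7 residues in the third membrane segment, which lines the gate of the channel, and it is shown because it is the longest run of residues found in all 6 proteins. Capitals mark the 21 bases of the run, with 15 coding bases on either side in lower case. The stretch is given for Grin1, for 1 GluN2 subunit and for the GluN3 subunit, read from mm10 on the minus strand, 5′ to 3′, within 1 exon of the GENCODE transcript.
Grin1: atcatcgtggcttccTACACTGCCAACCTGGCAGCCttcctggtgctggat
Grin2c: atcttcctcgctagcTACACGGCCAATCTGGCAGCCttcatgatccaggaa
Grin3a: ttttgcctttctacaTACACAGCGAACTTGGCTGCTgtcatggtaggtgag
The stretches lie in exon 15 of 21 of Grin1 (chr2:25297187-25297237), exon 9 of 13 of Grin2c (chr11:115253737-115253787) and exon 3 of 9 of Grin3a (chr4:49770458-49770508). Within the run, Grin2c had 19 and Grin3a 16 of the 21 bases in common with Grin1, although the residues were identical. Over the whole 51 bases the counts were 39 for Grin2c and 30 for Grin3a, so that even here, where the proteins are most alike, the transcripts differed in sequence.

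Grin1 had the highest level of the 6 and Grin2a the lowest in both genotypes, when levels were compared as normalized count per kilobase of the longest transcript. In controls the level of Grin1 was 9353 ± 3543 per kilobase (SD, n = 4), that of Grin2c 1825 ± 464, of Grin3a 1163 ± 482, of Grin2d 649 ± 260, of Grin2b 241 ± 27.6 and of Grin2a 154 ± 63.1. The ranges of neighbours in this order did not overlap between Grin1 and Grin2c or between Grin2d and Grin2b, and overlapped in the other 3 pairs. Mutants had the same order, from 6194 ± 1807 for Grin1 to 149 ± 15.6 for Grin2a, and there Grin3a and Grin2d were the only neighbours whose ranges overlapped. Among the 16594 tested genes with a transcript length, the level of Grin1 stood at percentile 98.1, Grin2c at 87.8, Grin3a at 79.3, Grin2d at 68.0, Grin2b at 48.6 and Grin2a at 40.2.

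The order in the middle depended on the length used. Grin2b and Grin2a have long annotated transcripts, of 24060 and 14634 bases, against 4276 for Grin1, 4895 for Grin2c, 5431 for Grin2d and 7491 for Grin3a. Per kilobase of coding sequence, a length chosen after the data were seen, controls had 13886 ± 5260 (SD, n = 4) of Grin1, 2555 ± 1060 of Grin3a, 2402 ± 611 of Grin2c, 1306 ± 149 of Grin2b, 887 ± 355 of Grin2d and 513 ± 210 of Grin2a. Grin1 stayed highest and Grin2a lowest on this scale, whereas the mean of Grin2b moved above that of Grin2d. Grin3a stood above Grin2c in the control means alone, in 2 of 4 control libraries and 1 of 4 mutant libraries. The lengths of the constitutive regions on which the authors counted reads are not given in the sources used here, so neither scale is exact.

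**Figure D1:**
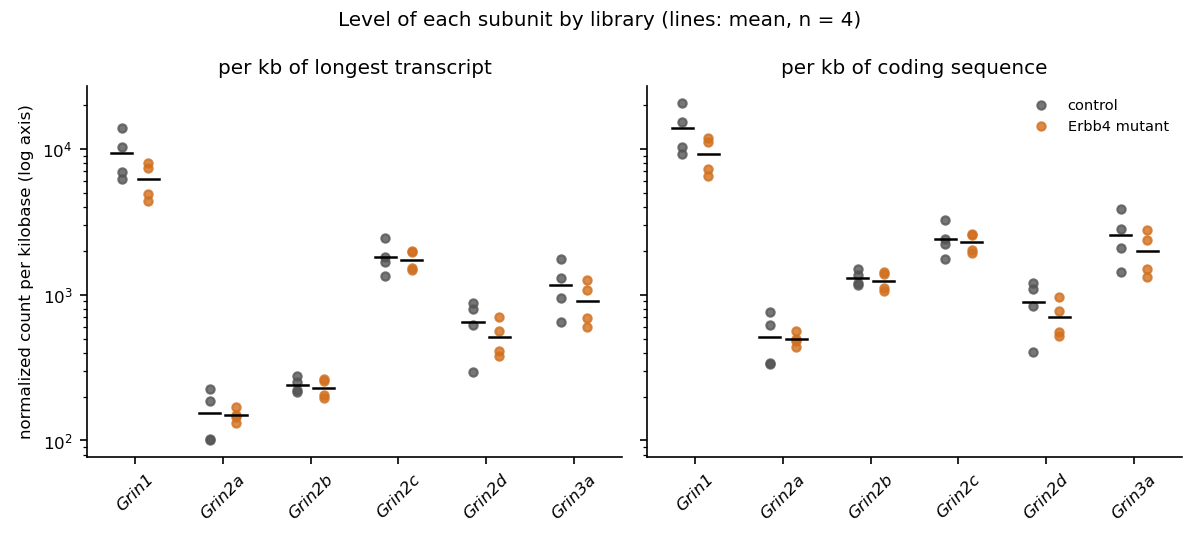
Normalized count per kilobase (log axis) of each NMDA receptor subunit gene in each library, with control libraries in grey, Erbb4 mutant libraries in orange and black lines at the mean of 4. The left panel divides by the longest transcript and the right panel by the coding sequence, and Grin1 lies highest and Grin2a lowest in both, while Grin2b moves above Grin2d on the right.

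No member passed the thresholds between genotypes. Those were the thresholds of the study, an unadjusted p of at most 0.05 with a fold change of at least 1.5, here in a limma fit on log2(normalized count + 1) over 31171 genes. Of these genes 7.15% were called, 3.17% as lower and 3.98% as higher in mutants, and 0.0449% had an adjusted p under 0.05. The study itself used DESeq2 on genes above an expression cut, and reported most of its differentially expressed genes as downregulated. DESeq2 called 9.09% of the same 31171 genes here, and 5.05% were called lower. The count among the members was 0 of 6 by limma, by edgeR and by DESeq2, and 0 had an unadjusted p under 0.05 by any of the 3. Genotypes did not overlap for 4.93% of all genes tested and for 0 of the 6 members. Log2 fold changes were below 0 for 5 of 6, with a median of -0.17, beside a median of 0.06 over all genes tested, of which 46.6% were below 0. Among the 8324 tested genes with a mean of at least 1000, as each member had, the median was -0.04 and 53.5% were below 0.

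Grin1 (chromosome 2, 25291177 to 25319187), the obligatory subunit, had normalized counts of 29651, 59573, 44191 and 26555 in control replicates 1, 3, 4 and 5. Mutant replicates 2, 3, 4 and 5 had 31867, 34268, 21096 and 18712. Mutants 4 and 5 lay below every control, whereas mutants 2 and 3 lay above controls 1 and 5, so that the genotypes overlapped. The study speaks of 2 sequencing batches, which no label assigns to libraries, so the part of batch in such splits among libraries of 1 genotype was not tested. Control and mutant means were 39992 ± 15150 and 26486 ± 7725 (SD, n = 4 each). This gave a log2 fold change of -0.57 (standard error 0.31, 95% interval -1.26 to 0.12), the largest of the 6, with an adjusted p of 0.58 by limma. Without the library labelled control replicate 1 it was -0.68, and without control replicate 5 it was -0.74 and passed the thresholds (limma, unadjusted p = 0.043, adjusted p = 0.38). It was smaller without control replicate 3 (-0.35) or mutant replicate 5 (-0.42).

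Grin1os, annotated as an antisense gene, lies inside Grin1 (chromosome 2, 25291220 to 25298928). Its control and mutant means were 7920 ± 3292 and 5018 ± 1679 (SD, n = 4 each), and its log2 fold change was -0.63 (standard error 0.32, adjusted p = 0.58 by limma). Over the 8 libraries its log2 values followed those of Grin1 with Pearson's r = 0.997. The library kit does not mark the strand, so reads of Grin1 and Grin1os cannot be told apart where they overlap, and the Grin1 values are uncertain to that extent. Lrrc26, which overlaps the end of Grin1, had at most 122.4 normalized counts in any library, and Ppp3r2, which lies inside Grin3a, at most 184.7.

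Of the glutamate-binding GluN2 subunits, Grin2a (chromosome 16, 9567901 to 9995813) had normalized counts of 1471, 1497, 3324 and 2733 in control replicates 1, 3, 4 and 5 and of 1931, 2123, 2483 and 2186 in mutant replicates 2, 3, 4 and 5. All 4 mutants lay between the lower and the higher pair of controls. The means, 2256 ± 924 and 2181 ± 228.8 (SD, n = 4 each), differed by 0.04 in log2 fold change (standard error 0.28, 95% interval -0.58 to 0.66, adjusted p = 0.97 by limma). The sign of this value was not fixed, since it was -0.14 without the library labelled control replicate 1.

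Grin2b (chromosome 6, 135713221 to 136173545) was the steadiest member across libraries, with 5175, 6035, 5383 and 6640 in the controls and 6178, 6323, 4910 and 4699 in the mutants, in the same order of replicates. Mutants 4 and 5 were below every control and mutants 2 and 3 within the control range. With means of 5808 ± 664.7 and 5527 ± 841.4 (SD, n = 4 each), its log2 fold change was -0.08 (standard error 0.18, 95% interval -0.48 to 0.33, adjusted p = 0.90 by limma). The interval reaches neither a 1.5-fold fall nor a 1.5-fold rise. Without the library labelled control replicate 1 the log2 fold change was -0.13.

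Grin2c (chromosome 11, 115249169 to 115267304) had 6568, 8265, 8896 and 12008 in the controls and 9726, 9571, 7224 and 7500 in the mutants, all 4 of which lay within the range of the controls. Its means were 8934 ± 2273 and 8505 ± 1326 (SD, n = 4 each), and the log2 fold change was -0.05 (standard error 0.22, 95% interval -0.54 to 0.44, adjusted p = 0.95 by limma). As with Grin2b, the interval holds no 1.5-fold change, so these 2 subunits were the ones bounded most closely in the fit of all 8 libraries. Without the library labelled control replicate 1 the log2 fold change of Grin2c was -0.19, and with library weights -0.28. No interval was computed for those fits, so the bound is not shown to hold in them.

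Grin2d (chromosome 7, 45832483 to 45866681), the subunit of slow, weakly magnesium-blocked receptors, had 1610, 4799, 4336 and 3344 in the controls and 3073, 3839, 2221 and 2076 in the mutants. The library labelled control replicate 1 was the lowest of all 8, below every mutant, whereas each of the other 3 controls exceeded mutants 2, 4 and 5. With all libraries the means were 3522 ± 1412 and 2802 ± 819.1 (SD, n = 4 each) and the log2 fold change -0.26 (standard error 0.34, 95% interval -1.02 to 0.50, adjusted p = 0.79 by limma). Without that library the log2 fold change was -0.60 and passed the thresholds (limma, unadjusted p = 0.040, adjusted p = 0.77). In that fit 4.85% of all genes passed, and 2.06% passed as lower. The value for Grin2d was -0.07 without control replicate 3, -0.12 without control replicate 4 and -0.13 without mutant replicate 5, and did not pass in these fits.

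Grin3a (chromosome 4, 49661612 to 49845770), the glycine-binding subunit that lowers calcium entry, had 4841, 13243, 9676 and 7073 in the controls and 8035, 9413, 5148 and 4472 in the mutants. The library labelled control replicate 1 was again the lowest control, and mutant 5 alone lay below it. The means were 8708 ± 3612 and 6767 ± 2345 (SD, n = 4 each), and the log2 fold change was -0.33 (standard error 0.34, 95% interval -1.07 to 0.41, adjusted p = 0.73 by limma). Without that library the value was -0.58 and without control replicate 3 it was -0.10, and it passed in neither fit.

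**Figure D2:**
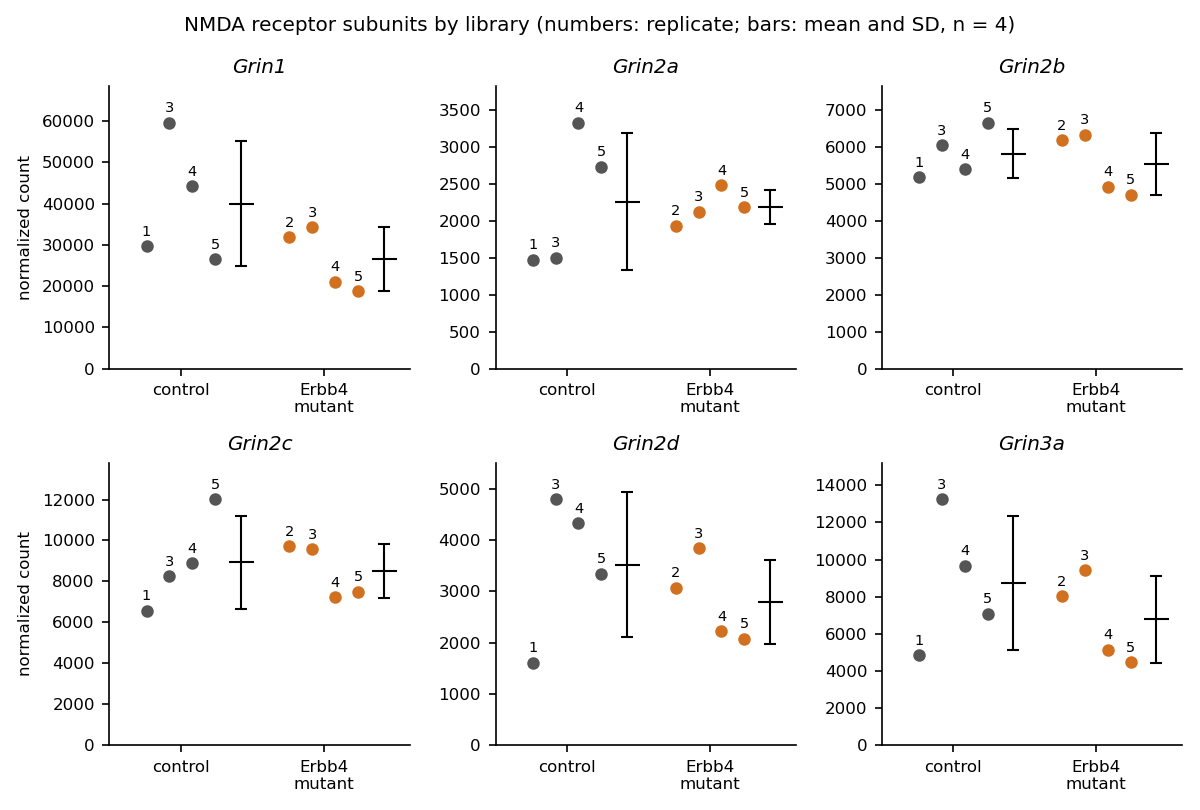
Normalized count of each NMDA receptor subunit gene in each of the 8 libraries, with control libraries in grey, Erbb4 mutant libraries in orange, the replicate number above each point and bars at the mean and SD of 4. The genotypes overlap in all 6 panels, and control replicate 1 is the lowest library for Grin2d.

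Weighting the libraries by how well they fitted changed the calls. Weights estimated by limma ran from 0.286 for the library labelled control replicate 1 to 2.87 for mutant replicate 4. With them Grin1 (-0.78), Grin2d (-0.67) and Grin3a (-0.68) passed the thresholds as lower, with adjusted p of 0.26, 0.27 and 0.28 by limma. These were 3 of 6 members, where 11.6% of all genes were called, and 5.24% of all genes were called lower. Grin2a, Grin2b and Grin2c did not pass. Leaving out control replicate 5 let Grin1 pass as lower, where 12.1% of all genes passed and 6.35% passed as lower. At an adjusted p of 0.05 no member passed in any of these fits.

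**Figure D3:**
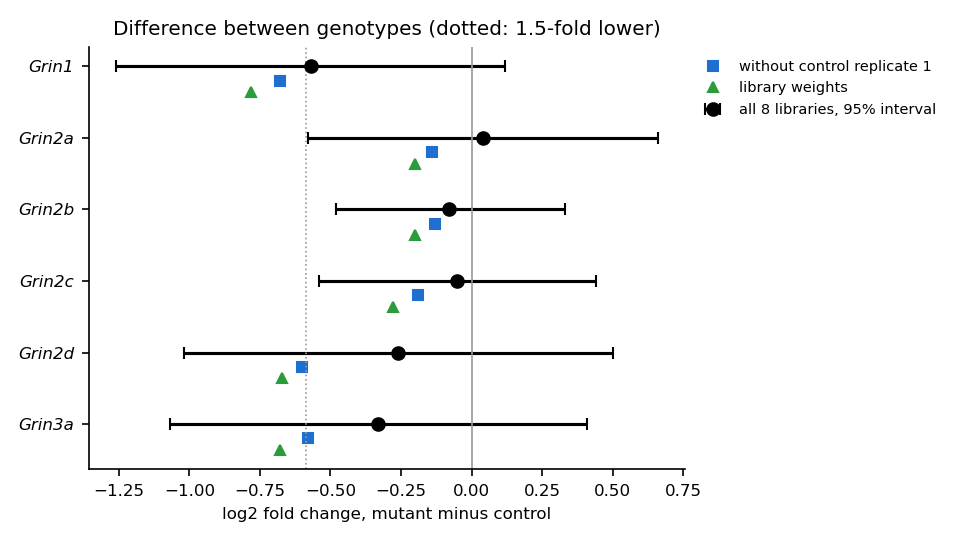
Log2 fold change of each NMDA receptor subunit gene, mutant minus control, with black points and bars for the value and 95% interval from all 8 libraries, blue squares for the value without control replicate 1 and green triangles for the value with library weights. All 6 intervals include 0, and Grin1, Grin2d and Grin3a lie farthest below it in each fit.

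The balance of subunit transcripts was compared as 8 ratios of normalized counts within a library, which are free of library scaling. These are ratios of RNA in the whole pulldown and do not measure the makeup of receptor proteins. The geometric mean of each of the 5 ratios to Grin1 was higher in mutants. Grin2a to Grin1 was 0.0558 in controls and 0.0848 in mutants, Grin2b to Grin1 0.152 and 0.214, Grin2c to Grin1 0.230 and 0.329, Grin2d to Grin1 0.0858 and 0.106, and Grin3a to Grin1 0.215 and 0.252. The differences of the log2 ratios were 0.60, 0.49, 0.52, 0.31 and 0.23, and none passed its test against the spread between libraries. Exact two-sided permutation tests gave p between 0.14 and 0.31 and an adjusted p of 0.50 for each, where the smallest p that 4 libraries against 4 can reach is 0.029. Without the library labelled control replicate 1 the 5 differences were 0.55, 0.55, 0.50, 0.09 and 0.10, in the same order. The 5 ratios share Grin1 as denominator and are not independent.

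Grin2b to Grin1 was 0.175, 0.101, 0.122 and 0.250 in control replicates 1, 3, 4 and 5, and 0.194, 0.185, 0.233 and 0.251 in mutant replicates 2, 3, 4 and 5. All 4 mutants exceeded 3 of the 4 controls, and control replicate 5 lay within the range of the mutants. Grin3a to Grin1, with the lowest p, was 0.163, 0.222, 0.219 and 0.266 in controls and 0.252, 0.275, 0.244 and 0.239 in mutants, so that here too control replicate 5 overlapped the mutants. Grin2c to Grin1 was 0.222, 0.139, 0.201 and 0.452 in controls and 0.305, 0.279, 0.342 and 0.401 in mutants. Control replicate 5 was the highest of the 8 here and had the highest Grin2c count as well. For Grin2d to Grin1 the controls had 0.0543, 0.0806, 0.0981 and 0.126 and the mutants 0.0964, 0.112, 0.105 and 0.111, all within the range of the controls. For Grin2a to Grin1 the controls had 0.0496, 0.0251, 0.0752 and 0.103 and the mutants 0.0606, 0.0620, 0.118 and 0.117. Mutants 4 and 5 exceeded every control there. The control libraries spread more than the mutant ones in all 5, with an SD of the log2 ratio of 0.51 against 0.10 for Grin2d to Grin1 and of 0.29 against 0.09 for Grin3a to Grin1.

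The ratio of Grin2a to Grin2b, which rises in cortex as synapses mature, was 0.366 in controls and 0.397 in mutants (difference of log2 ratios 0.12, exact permutation p = 0.71, adjusted p = 0.71). Control values were 0.284, 0.248, 0.618 and 0.412 and mutant values 0.313, 0.336, 0.506 and 0.465, so that the mutants lay within the control range. Grin2d to Grin2b was 0.563 and 0.496 (difference -0.18, exact permutation p = 0.63), and Grin2d to Grin2a 1.54 and 1.25 (difference -0.30, exact permutation p = 0.60). In single libraries Grin2d to Grin2b ran from 0.311 in the library labelled control replicate 1 to 0.806 in control replicate 4, with the mutants at 0.442 to 0.607 in between. For Grin2d to Grin2a, control replicate 3 stood at 3.21 while the other controls were at 1.09 to 1.30, and without it the difference was 0.05. Without the library labelled control replicate 1 the differences were -0.01 for Grin2a to Grin2b, -0.47 for Grin2d to Grin2b and -0.46 for Grin2d to Grin2a.

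**Figure D4:**
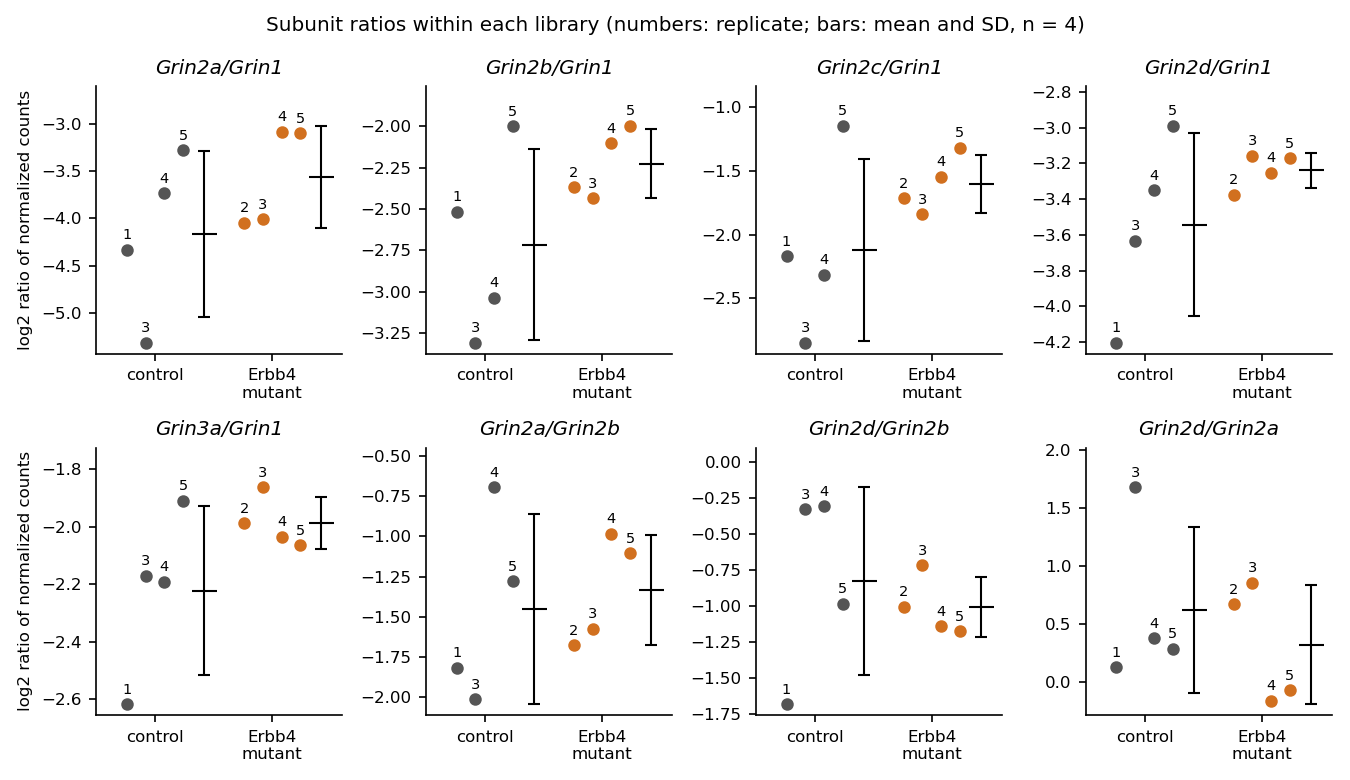
Log2 of 8 ratios of normalized counts between NMDA receptor subunit genes within each library, with control libraries in grey, Erbb4 mutant libraries in orange, replicate numbers above the points and bars at the mean and SD of 4. The genotypes overlap in all 8 panels, and for Grin2d/Grin2a control replicate 3 stands apart from the other controls.

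Correlations of the members among themselves over the 8 libraries are given as a description, since the values of a library share its depth and composition. Log2 values of Grin2d and Grin3a had Pearson's r = 0.95, Grin1 and Grin3a 0.91, and Grin1 and Grin2d 0.76. Grin2b and Grin2c had 0.84. Grin2b also had 0.67 with Grin3a and 0.65 with Grin2d, and Grin2c had 0.63 with Grin2d. Grin2a was at most 0.44 with any other member. After the genotype means were taken out, Grin2d and Grin3a were at 0.95, Grin1 and Grin3a at 0.93, Grin1 and Grin2d at 0.78, and Grin2b and Grin2c at 0.85. Without the 2 libraries farthest from the median, Grin2d and Grin3a were at 0.95, Grin1 and Grin3a at 0.77, Grin1 and Grin2d at 0.61, and Grin2b and Grin3a at 0.73.

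The members also differed in how they moved with markers of MGE interneurons. The summed level of the 13 markers ran from 28172 to 84651 in controls and from 16378 to 42601 in mutants. It was highest in control replicate 3 and lowest in mutant replicates 4 and 5. All 13 had log2 fold changes below 0, with a median of -0.69, and 2, Gad1 (-1.04) and Gad2 (-0.93), which make GABA, passed as lower, close to the threshold (limma, unadjusted p = 0.049 and 0.047). By edgeR 4 of the 13 passed and by DESeq2 5, whereas without the library labelled control replicate 1 limma called 0, and 0 had an unadjusted p under 0.05. Gad1 and Gad2 also missed the threshold without control replicate 3 or 4, or without mutant replicate 4 or 5. Pearson's r with the mean log2 of the 13 markers was 0.95 for Grin1, 0.79 for Grin3a, 0.57 for Grin2d, 0.47 for Grin2b, 0.07 for Grin2c and -0.47 for Grin2a (8 libraries). Within genotypes it was 0.93 for Grin1, 0.77 for Grin3a and -0.53 for Grin2a.

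Set against that marker mean in the same library, a comparison added after the data were seen, no member had a lower mean in mutants. For Grin1 the log2 level minus the marker mean was 4.16, 4.41, 4.72 and 4.68 in the controls and 4.41, 4.47, 4.79 and 4.65 in the mutants, which overlapped throughout. For Grin2d it was -0.05, 0.78, 1.37 and 1.69 in the controls and 1.04, 1.31, 1.55 and 1.47 in the mutants, so that the library labelled control replicate 1 was again the lowest. For Grin3a it was 1.54, 2.24, 2.52 and 2.78 in the controls and 2.43, 2.61, 2.76 and 2.58 in the mutants, with the same library lowest. Its low values raise the differences of Grin2d and Grin3a given next, which were not computed without it. The log2 difference between genotypes was 0.09 for Grin1 (exact permutation p = 0.57), 0.69 for Grin2a, 0.58 for Grin2b, 0.60 for Grin2c, 0.39 for Grin2d and 0.32 for Grin3a (exact permutation p between 0.17 and 0.43 for these 5). None passed. The direction depended on the markers chosen. Against the mean of the excitatory neuron markers the difference was -0.54 for Grin1, -0.30 for Grin3a and -0.23 for Grin2d (exact permutation p = 0.20, 0.46 and 0.60), and against that of the astrocyte markers it was -0.35 for Grin1 (exact permutation p = 0.40). The part of the marker differences in the Grin1, Grin2d and Grin3a values was not tested.

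**Figure D5:**
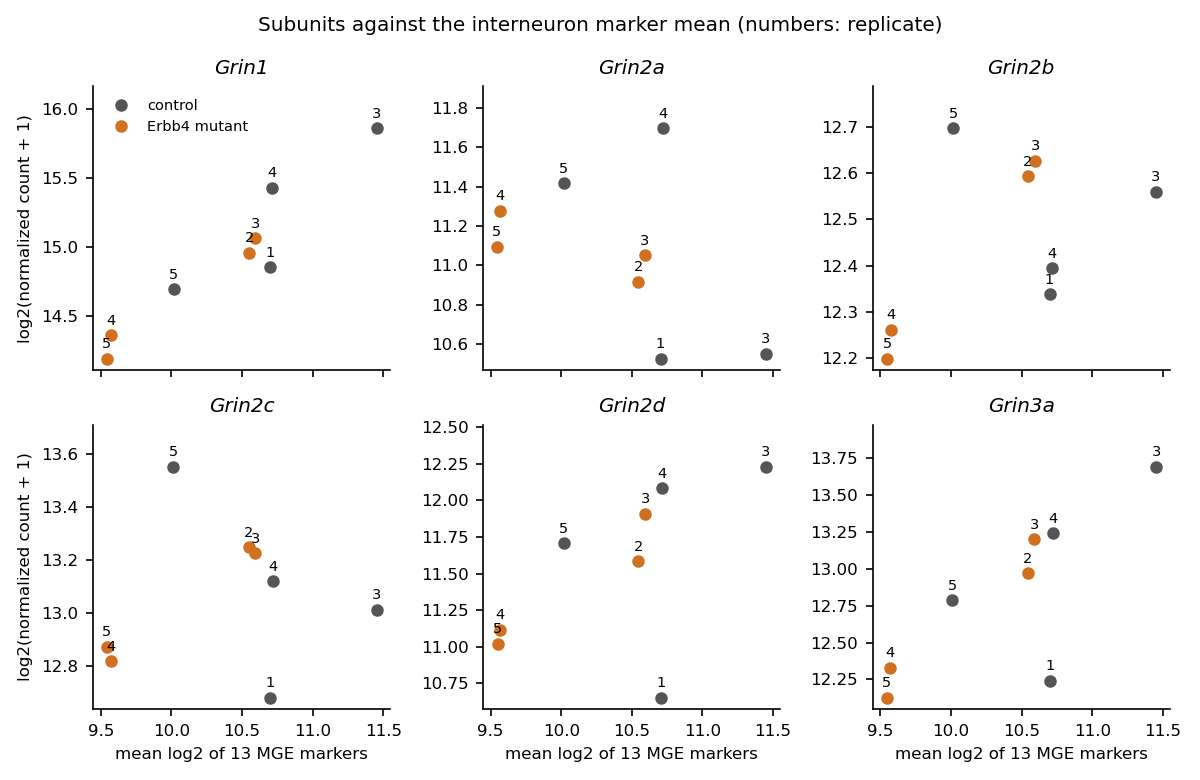
Log2(normalized count + 1) of each NMDA receptor subunit gene against the mean log2 of 13 MGE interneuron markers in the same library, with control libraries in grey, Erbb4 mutant libraries in orange and replicate numbers above the points. Grin1 and Grin3a lie along a rising line, Grin2a does not, and control replicate 1 lies low for Grin2d and Grin3a.

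Markers of other cells, and of the PV and SST subtypes, differed between genotypes in part. Those of PV cells had a median log2 fold change of -1.42, with 4 of 7 called lower by limma, 4 by edgeR and 6 by DESeq2. The 4 by limma were Pvalb (-2.08), Syt2 (-1.10), Pthlh and Kcnc1, and without the library labelled control replicate 1 the calls were 3, since Pvalb was at -1.89 and did not pass (limma, unadjusted p = 0.056). Those of SST cells had a median of -1.22, with 2 of 8 called lower by limma, Chodl and Crh, 1 by edgeR and 3 by DESeq2, and without that library neither Chodl nor Crh passed but 1 other, Elfn1, did. Oligodendrocyte markers had a median of -0.62, with 3 of 10 called lower by limma, Mag, Mog and Opalin, 5 by edgeR and 6 by DESeq2. Their summed level was 673772 in the library labelled control replicate 1 against 202878 to 362807 in the other 7, and limma called 0 of the 10 without that library or with library weights, with 0 at an unadjusted p under 0.05. Endothelial and mural markers had a median of 0.54, with 4 of 10 called higher by each of the 3 tools, and without that library 1, Tek, was called. For markers of caudal ganglionic eminence interneurons the median was -0.60, of excitatory neurons -0.18, of astrocytes -0.26, of oligodendrocyte precursors 0.11 and of microglia -0.44, with 1 called in each direction among the excitatory markers. In the other 4 lists limma called 0 and 0 had an unadjusted p under 0.05, whereas edgeR called 2 and DESeq2 3 of the caudal markers, and DESeq2 1 each of the astrocyte and microglial ones. Grin2c, the member known from glia, had Pearson's r = -0.39 with the mean of the astrocyte markers, and Grin2a had -0.85 (8 libraries). With the mean of the excitatory neuron markers r was 0.62 for Grin2b, 0.61 for Grin2c and 0.38 for Grin2d. It was 0.29 for Grin3a, 0.08 for Grin1 and 0.01 for Grin2a. The part of these cells in the members' values was not tested.

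Genes whose log2 values were most like those of each member were taken from 13761 tested genes with a mean of at least 100, over the 8 libraries. Grin1os and Npnt (r = 0.988), which encodes an extracellular matrix protein, were among the 3 genes most like Grin1. Cntnap1 (0.987) and Kcns2 (0.985), which encode an axonal adhesion protein and a potassium channel modifier, were most like Grin3a. Grin2d was most like Adamts15 (0.982), Ppm1l (0.982) and Robo1 (0.980). For Grin2a the genes were Bcorl1 (0.976), Pou6f1 (0.971) and Tcf19 (0.965), for Grin2b Amer2 (0.975), Cbr3 (0.953) and Kif1a (0.926), and for Grin2c Nav3 (0.960), Gfod1 (0.957) and Irs1 (0.955). These genes were picked as the closest of 13761 over only 8 libraries, where high r also arises by selection, so they are given as a description. The pattern of Grin1 was common, with r over 0.9 in 2.51% of the genes, and that of Grin2b rare, at 0.0363%.

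The proteins that anchor, feed and follow the receptor were described from lists of 63 genes, of which 60 were tested. Of the 60, 4 (6.67%) were called lower and 1 higher, 8.33% in all. Over all genes tested 3.17% were called lower and 7.15% in all. Of the 8324 tested genes with a mean of at least 1000, 515 were called lower and 440 higher. The median log2 fold change of the 60 genes was -0.04. All had an adjusted p of at least 0.58 by limma. By DESeq2 Pacsin1 was at 0.045 and Rasgrf1 at 0.051. Of 18 scaffold genes 1 was called, Lin7b (-0.61), a small PDZ protein of the complex that carries receptors along microtubules. Its means were 1037 ± 231.2 and 677.4 ± 133.4 (SD, n = 4 each). Dlg4, which encodes PSD95, the main anchor of GluN2 tails, had 2053 ± 872.1 and 1763 ± 1025 (log2 fold change -0.31, adjusted p = 0.79 by limma).

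Of 20 signalling genes 1 was called lower, Rasgrf1, a calcium-activated exchange factor for Ras that acts downstream of NMDA receptors. Its normalized counts were 9198, 12613, 10166 and 8232 in controls and 6234, 6487, 5761 and 5679 in mutants. Every mutant lay below every control. The log2 fold change was -0.72 (standard error 0.19, adjusted p = 0.58 by limma), and Rasgrf1 also passed without the library labelled control replicate 1 (-0.76). Ptpn5, the STEP phosphatase that acts on GluN2B, did not overlap between genotypes either, at 9472 ± 1334 and 6995 ± 528.4 (SD, n = 4 each), but missed the fold threshold (-0.43). Calm2, a calmodulin gene, missed the p threshold by limma (-0.88, unadjusted p = 0.053) and passed by edgeR and DESeq2. The kinase genes Camk2a (-0.15) and Camk2b (-0.22) did not pass.

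Among 14 tested genes for trafficking and partners, 2 were called lower and 1 higher. Pacsin1, an endocytic adaptor that binds GluN3A, had 18679, 15699, 13398 and 13454 in controls and 8680, 10231, 8923 and 9752 in mutants, with no overlap and a log2 fold change of -0.69 (standard error 0.18). It passed without the library labelled control replicate 1 as well (-0.59). Neto1, an auxiliary protein of kainate receptors that also associates with NMDA receptors, was lower (-0.64), and Lrp8, a reelin receptor that couples to NMDA receptors, was higher (0.73). Neither Neto1, Lrp8 nor Lin7b passed without that library. Nsf, a fusion ATPase, did not overlap but missed the fold threshold (-0.50). Without overlap were 4 of the 60 genes, 6.67%, beside the 4.93% over all genes.

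Genes that supply co-agonist and clear glutamate had 0 of 8 tested called by limma, edgeR or DESeq2, and 0 had an unadjusted p under 0.05, although all 8 log2 fold changes were below 0, with a median of -0.27. The lowest p was that of Slc1a1, the neuronal glutamate transporter (-0.61, adjusted p = 0.59 by limma), followed by Slc7a10, which carries D-serine and glycine (-0.41, adjusted p = 0.61 by limma). Srr, the enzyme that makes D-serine, had 1842 ± 234.4 and 1586 ± 190.3 (SD, n = 4 each).

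The other ionotropic glutamate receptors gave a frame for these values. All 4 AMPA receptor subunits had log2 fold changes below 0, with a median of -0.51, from -0.17 for Gria2 to -0.75 for Gria4 (adjusted p = 0.58 by limma). By limma and edgeR 0 were called and 0 had an unadjusted p under 0.05, and DESeq2 called 1, Gria4. Of 5 kainate receptor subunits 1 was called lower, Grik1 (-0.83, adjusted p = 0.58 by limma), and the median was -0.13. Grik1 did not pass without control replicate 3 or without mutant replicate 4 or 5. The values of the NMDA receptor subunits, from -0.57 to 0.04, lay within the span of the kainate receptor subunits (-0.83 to 0.22).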

How the data were processed

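The authors aligned paired reads to mm10 with STAR (2.4.0 in the submitters' processing notes), counted them over the constitutive parts of Fast DB genes and deposited these counts as a signal scaled with DESeq2, by 1 size factor for each library. Values were whole multiples of the value of 1 read for 100% of entries in each library (tolerance 0.01), which gave the reads back. The study states 4 biological replicates per genotype. It speaks of 2 sequencing batches that no label assigns to libraries, so no within-batch value could be had.

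All genes whose mean normalized count reached 10 in either genotype were fitted with limma 3.58.1 (eBayes with trend, R 4.3.3) on log2(normalized count + 1), over all 31171 genes, with Benjamini-Hochberg adjustment. This scale understates changes of low genes. Ratios were tested by exact permutation, two-sided, with adjustment over the 8. Alternatives were edgeR 4.0.16 (2279 genes called) and DESeq2 1.42.0 (2834) on the recovered reads, other pseudocounts, filters and scalings, library weights, a replicate block and leaving out each library. The fit was tested on simulated data. Transcript lengths and sequences came from GENCODE M21 on mm10.

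Members, gene lists and marker lists were chosen with earlier results of these data known. Named genes are the members, Erbb4, called genes of each list (or the 2 of lowest p), the first 2 markers of a list where its cells were checked, and the 3 genes most like each member. Some of these genes and sequences are not reported here. Ptpn5, Nsf, Dlg4, Camk2a, Camk2b, Srr and Gria2 were added after their values were seen.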

Additional observations from a re-analysis of the deposited data

Results flagged for a closer look

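The ratio of Grin2d to Grin2a in the controls held 1 library that stood apart. Control replicate 3 was at 3.21 and the other 3 at 1.09, 1.22 and 1.30. The gap between it and the nearest control was 0.837 of the whole range of the log2 ratios, above the limit for 4 values in Dixon's test at the 95% level. It was 1 of 28 groups of 4 looked at, and chance gives about 1 in 20. The library had the highest Grin2d of all 8 (4799) and the second lowest Grin2a (1497).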

How the results depend on the processing

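Grin1, Grin2d and Grin3a were the members whose calls changed. With library weights 3 members passed, at -0.78 for Grin1, -0.67 for Grin2d and -0.68 for Grin3a, and Grin2a turned to -0.20. The fit with the replicate number as a block also called 3 members as lower, at -0.79, -0.66 and -0.69, with Grin2a at -0.08. In that fit 10.2% of all genes were called, and 5.51% were called lower. That block rests on replicates 3, 4 and 5 alone. Deviations of libraries with the same number correlated at 0.10, 0.0981 and 0.0823. Control replicate 5 correlated about as well with mutant replicate 4 (0.0847) as with mutant replicate 5 (0.0823). Values this close cannot settle whether the numbers pair the libraries, and the main fit used no block. Of the pairs of a control with a mutant, deviations correlated above 0 (0.0226 to 0.10) in the 8 that joined controls 1 and 3 with mutants 2 and 3, or controls 4 and 5 with mutants 4 and 5, and below 0 (-0.115 to -0.0292) in the other 8. Deviations were taken from the mean of each genotype, so each library must show both signs whatever the data. Which pairs share a sign is given as a description, and the part of sequencing batch in it was not tested. The cause of the changed calls was not tested. Grin2a was -0.04 by edgeR and by DESeq2.

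Leaving out 1 library at a time gave 0 to 1 members called, with log2 fold changes of -0.74 to -0.35 for Grin1, -0.14 to 0.26 for Grin2a, -0.15 to 0.00 for Grin2b, -0.19 to 0.10 for Grin2c, -0.60 to -0.07 for Grin2d and -0.58 to -0.10 for Grin3a. The difference of log2 ratios ran from -0.07 to 0.37 for Grin2a to Grin2b and from -0.48 to 0.05 for Grin2d to Grin2a, and the other 6 ratios kept their sign. With 1 library left out the exact permutation test cannot reach a p of 0.05, so no ratio could pass in these fits. Without control replicate 5 the ratios of Grin2b, Grin2c and Grin3a to Grin1 had exact permutation p = 0.057 (adjusted p = 0.15). That is the lowest p the test can give there, and the genotypes then did not overlap for these ratios. Per kilobase of coding sequence, an alternative added after the data were seen, levels in controls were 13886 (Grin1), 513 (Grin2a), 1306 (Grin2b), 2402 (Grin2c) and 2555 (Grin3a), each moved by more than 1 SD. Other pseudocounts, filters and scalings changed no call of a member.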
